A study of Arabidopsis thaliana with 12 samples.

Results

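WRKY proteins are a large family of plant transcription factors, and 76 of the 33602 genes in the deposited tables were taken as members. A gene was a member when one of its symbols was WRKY with a number or when its annotated function named a WRKY DNA-binding or WRKY family protein. By symbol 71 genes qualified and by function 71 genes, of which 5 qualified by function only. A WRKY number could be given to 72 members. The other 4 were AT3G32090, AT3G56390, AT4G31805 and AT5G46310, and no WRKY signature was found in their coding sequences, whereas each of the 72 numbered members had at least 1. AT4G31805, which RefSeq lists under the synonym POLAR, was the only one of these 4 with enough counts to be tested, so the label of that member is not borne out by its sequence.

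WRKY proteins bind DNA through a domain that couples a short conserved signature to a zinc finger, and their usual binding site is the W-box. Many members are switched on within minutes of wounding, touch or microbial elicitors, downstream of MAP kinase cascades, and others act in leaf senescence, phosphate supply, trichome development and flowering. In jasmonate signalling, JAZ proteins hold back MYC2, MYC3 and MYC4, and WRKY70, WRKY50 and WRKY51 are known from work on salicylic acid as points where both hormones meet.

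Levels were measured by mRNA sequencing of whole 8-d-old Arabidopsis seedlings, roots included, grown on agar medium in continuous light, with 3 libraries per genotype and about 200 pooled seedlings per library. The *jazQ mycT* line carries insertions at 8 loci, *jazQ* carries the 5 in JAZ genes, *mycT* carries the 3 in MYC genes, and Col-0 is the wild type in whose background every line was made. The JAZ insertions are *jaz1-2* (JIC-SM.22668), *jaz3-4* (GK-097F09), *jaz4-1* (SALK_141628), *jaz9-4* (GK-265H05) and *jaz10-1* (SAIL_92_D08), and those in MYC2, MYC3 and MYC4 are *jin1-7* (SALK_040500), GK-445B11 and GK-491E10. Each mutant is a single line, and where no source ties a library to a separate culture, p-values measure only the spread between these libraries. The Col-0 and *jazQ* libraries were made for an earlier study, for which the methods state parallel growth and processing, so for any comparison of *mycT* or *jazQ mycT* with either of them the genotype and the set of libraries cannot be told apart.

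Library totals ran from 12336090 to 26347184 counts. Genes for rRNA took 5.12% of the counts of *mycT* replicate 1 and 10.96% of those of *jazQ mycT* replicate 1, against 0.741% to 2.12% in the other libraries. JAZ3 was at 203 to 667 TPM in the 6 libraries that carry the JAZ insertions and at 8.76 to 14.0 TPM in the others, and JAZ10 was at 288 to 347 TPM and 3.58 to 5.21 TPM in the same sets, while JAZ1 was at 4.25 to 6.05 TPM and 32.3 to 60.0 TPM. JAZ4 was at 1.78 to 2.86 TPM and 4.77 to 6.29 TPM in these sets, and for JAZ9 they overlapped, at 70.3 to 89.6 TPM and 53.4 to 93.04 TPM. A gene value adds up reads on both sides of an insertion, so a high value is no sign of an intact gene. MYC2 was at 22.1 to 23.9 TPM in *jazQ mycT* and 30.7 to 39.3 TPM in *jazQ*, and at 13.2 to 18.6 TPM in *mycT* and 23.7 to 29.0 TPM in Col-0. MYC3 overlapped in both of these pairs of genotypes. MYC4 was at 25.9 to 28.7 TPM in *jazQ mycT* and 18.2 to 19.4 TPM in *jazQ*, and overlapped between *mycT* and Col-0. In bulk tissue, fewer cells of a type and less RNA per cell cannot be told apart.

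The family divides by domain structure. Group I holds 14 members, of which 12 had 2 signatures in the coding sequence and the other 2 had 1. The single-domain groups are IIa with 3 members, IIb with 8, IIc with 18, IId with 7, IIe with 8 and III with 14, and each of their members had 1 signature. A zinc finger of the C2HC kind was found in 13 of the 14 members of group III and in none of the others. In 3 members of group IIc, WRKY50, WRKY51 and WRKY59, codon 6 of the signature read lysine in place of glutamine. The 21 coding bases of the signature are given for the 5 genes that passed a test in any comparison and for WRKY51, to show what defines a member and where the variant lies. They were read from the RefSeq genome of build TAIR10.1, 5′ to 3′ along the gene, and capitals mark codon 6.
WRKY3 first domain (chr2:1015668-1015688, minus strand): tggcggaaatatgggCAGaag
WRKY3 second domain (chr2:1015070-1015090, minus strand): tggcgcaagtatggtCAGaaa
WRKY25 first domain (chr2:12904361-12904381, minus strand): tggagaaaatacggtCAGaaa
WRKY25 second domain (chr2:12903792-12903812, minus strand): tggaggaaatatggtCAAaaa
WRKY6 (chr1:23017701-23017721, minus strand): tggagaaaatatggcCAGaag
WRKY39 (chr3:1266791-1266811, minus strand): tggaggaagtatggaCAGaaa
WRKY65 (chr1:10236922-10236942, plus strand): tggcgtaagtacggcCAAaag
WRKY51 (chr5:25908864-25908884, plus strand): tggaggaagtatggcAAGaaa
Codon 6 was CAA or CAG, both for glutamine, in the 5 genes that passed a test, and AAG, for lysine, in WRKY51.

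Upstream sequence was taken as the 250 bases before the annotated start of each gene. TTGACC and TTGACT were searched as the W-box and CACGTG as the G-box, which MYC proteins bind, on both strands. A W-box lay in this window in 25 of the 76 members (32.9%), against 28.4% of 27443 protein-coding genes, and at least 2 W-boxes lay in 10 members (13.2%), against 6.18%. A G-box lay in 7 members (9.21%), against 6.49%. The windows shown are those of the 5 members whose levels differed most between libraries of one genotype, followed by that of WRKY3. Capitals mark a W-box or its reverse complement.
WRKY33 (chr2:16107985-16108234, plus strand): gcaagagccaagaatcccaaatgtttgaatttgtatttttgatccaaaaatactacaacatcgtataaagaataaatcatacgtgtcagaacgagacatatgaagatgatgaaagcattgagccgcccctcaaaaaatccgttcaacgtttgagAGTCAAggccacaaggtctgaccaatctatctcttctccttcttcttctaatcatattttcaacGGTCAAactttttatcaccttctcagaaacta
WRKY53 (chr4:12393983-12394232, minus strand): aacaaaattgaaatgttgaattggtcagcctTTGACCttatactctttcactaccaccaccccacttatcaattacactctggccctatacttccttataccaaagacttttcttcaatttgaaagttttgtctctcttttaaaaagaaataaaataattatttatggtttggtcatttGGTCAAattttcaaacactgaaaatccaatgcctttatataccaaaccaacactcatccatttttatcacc
WRKY30 (chr5:8154711-8154960, minus strand): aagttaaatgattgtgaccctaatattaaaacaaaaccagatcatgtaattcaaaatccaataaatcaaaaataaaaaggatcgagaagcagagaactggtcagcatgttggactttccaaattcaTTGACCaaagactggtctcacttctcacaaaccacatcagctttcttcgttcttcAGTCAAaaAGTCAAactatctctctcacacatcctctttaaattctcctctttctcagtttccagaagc
WRKY40 (chr1:30383311-30383560, plus strand): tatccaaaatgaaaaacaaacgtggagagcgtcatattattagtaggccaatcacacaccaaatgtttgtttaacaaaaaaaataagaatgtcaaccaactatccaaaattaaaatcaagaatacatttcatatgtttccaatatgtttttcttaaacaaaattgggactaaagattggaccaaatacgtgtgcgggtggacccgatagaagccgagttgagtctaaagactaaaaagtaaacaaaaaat
WRKY46 (chr2:19044956-19045205, minus strand): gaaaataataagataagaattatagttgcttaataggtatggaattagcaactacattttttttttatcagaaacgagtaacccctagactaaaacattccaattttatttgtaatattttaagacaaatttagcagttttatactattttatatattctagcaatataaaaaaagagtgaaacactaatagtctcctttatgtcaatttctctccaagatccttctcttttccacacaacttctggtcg
WRKY3 (chr2:1017223-1017472, minus strand): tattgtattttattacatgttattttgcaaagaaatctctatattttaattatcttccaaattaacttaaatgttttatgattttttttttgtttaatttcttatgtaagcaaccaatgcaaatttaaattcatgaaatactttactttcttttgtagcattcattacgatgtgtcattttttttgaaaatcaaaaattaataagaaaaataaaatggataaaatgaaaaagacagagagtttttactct
WRKY30 had 3 W-boxes in this window, and WRKY33 and WRKY53 had 2 each. These letters were not in the windows of WRKY40, WRKY46 and WRKY3. WRKY15 had 2 W-boxes and a G-box, and the G-box of WRKY51 began 90 bases before its start.

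In whole seedlings the summed level of the 76 members was 1095 ± 106 TPM for *jazQ mycT*, 1034 ± 40.5 TPM for *jazQ*, 1043 ± 287 TPM for *mycT* and 1071 ± 149.9 TPM for Col-0 (SD, n = 3 each). TPM is a length-scaled share of the transcripts of a library, so levels of different genes can be set side by side. The 10 highest members made up 52.4%, 49.3%, 52.6% and 49.8% of these sums in the same order of genotypes. A mean over all libraries of at least 10 TPM was reached by 31 members, 28 had a mean of at least 1 TPM but under 10 TPM, and 17 had less.

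WRKY33, which directs resistance to necrotrophic fungi and camalexin synthesis, was the highest member, with a mean of 126 TPM over the 12 libraries. It was followed by WRKY15, a regulator of leaf growth and osmotic stress responses, and by WRKY39, which acts in heat tolerance. WRKY11, WRKY18, WRKY6, WRKY7, WRKY40, WRKY65 and WRKY70 completed the 10 highest. WRKY15 averaged 92.4 ± 2.03 TPM in *jazQ mycT*, 89.3 ± 3.11 TPM for *jazQ*, 73.1 ± 24.5 TPM for *mycT* and 70.01 ± 17.4 TPM for Col-0. WRKY11, a negative regulator of basal resistance, averaged 61.4 ± 8.24 TPM in *jazQ mycT* and 51.2 ± 13.02 TPM in Col-0, and WRKY7 averaged 36.02 ± 4.81 TPM and 37.3 ± 1.22 TPM in the same genotypes (SD, n = 3 each). Their order was not firm. In Col-0 the libraries ran from 75.6 to 197 TPM for WRKY33 and from 56.9 to 89.8 TPM for WRKY15, and so overlapped. From WRKY18 to WRKY25, in places 5 to 11, the 12 libraries of each gene overlapped those of the next, with means of 38.5 TPM for WRKY18 and 29.2 TPM for WRKY25.

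**Figure D1:**
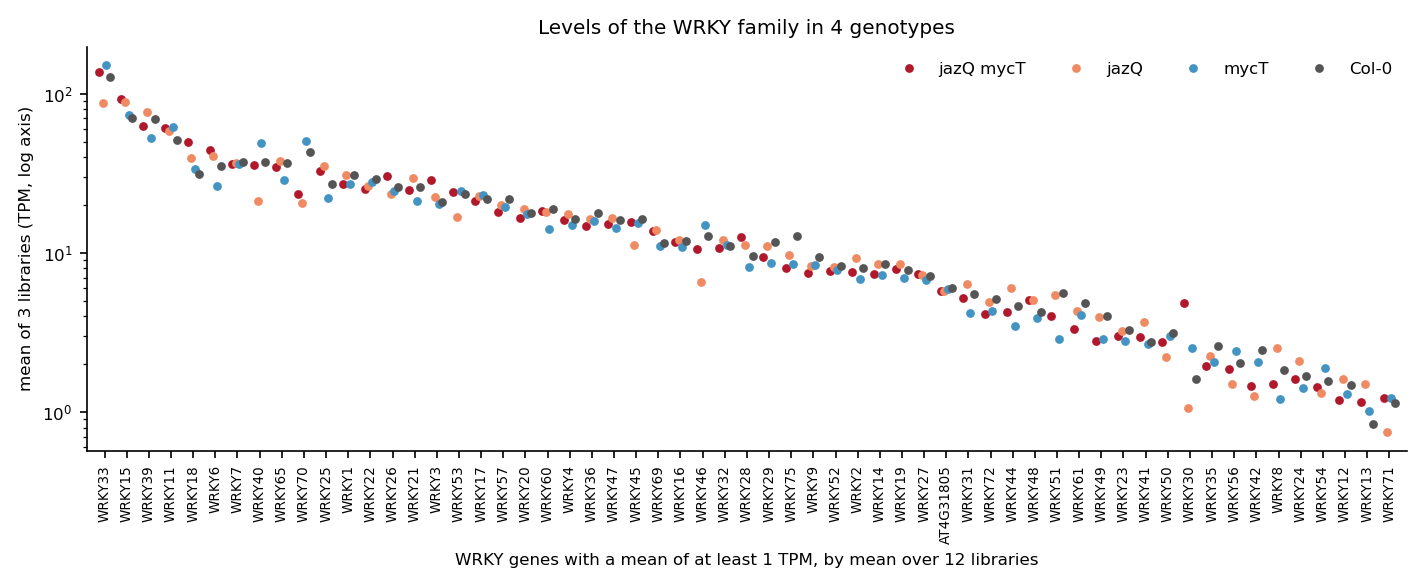
Mean level of each WRKY gene with at least 1 TPM on average, on a log axis in TPM, for *jazQ mycT*, *jazQ*, *mycT* and Col-0 (points, mean of 3 libraries each). Genes run from the highest mean over 12 libraries (WRKY33) to the lowest, and for most genes the 4 points lie close together.

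The filter on low counts left 62 of the 76 members, among 20888 genes tested. Those that did not pass were WRKY43, AT3G32090, WRKY63, WRKY59, WRKY55, WRKY62, WRKY66, WRKY10 and WRKY34, besides 5 members with no count. WRKY64, WRKY67, WRKY68, AT3G56390 and AT5G46310 had no count in any library, which in the smallest library allows up to 3 counts of 12336090. The highest count that any of the 14 reached was 10. WRKY34, known from pollen, had 2 counts over all libraries, and WRKY62, which acts with WRKY38 in basal defence, had 21.

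Few WRKY genes passed a test between genotypes. In the quasi-likelihood F-test of edgeR, with p-values adjusted by the method of Benjamini and Hochberg over all genes, no member passed an adjusted p of 0.05 in *jazQ* relative to Col-0, where 2.86% of all genes tested did. At an unadjusted p under 0.05 there were 11 of the 62 members (17.7%), against 16.6% of all genes, and DESeq2 called 0. In *mycT* relative to Col-0 1 member passed (1.80% of all genes), and in *jazQ mycT* relative to Col-0 1 (5.48%). Relative to *jazQ*, 1 member passed in *jazQ mycT* (2.21% of all genes), and relative to *mycT* 5 did (8.06% of the members, against 7.83% of all genes). The interaction, which asks whether the step between *jazQ mycT* and *jazQ* differs from the step between *mycT* and Col-0, passed in 0 members (0.579% of all genes), with 4 at an unadjusted p under 0.05 (6.45%, against 11.3% of all genes) and 0 by DESeq2. In *jazQ mycT* relative to *mycT* the share called is near that of all genes, and each other comparison had 0 or 1 call among the 62 members.

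**Figure D2:**
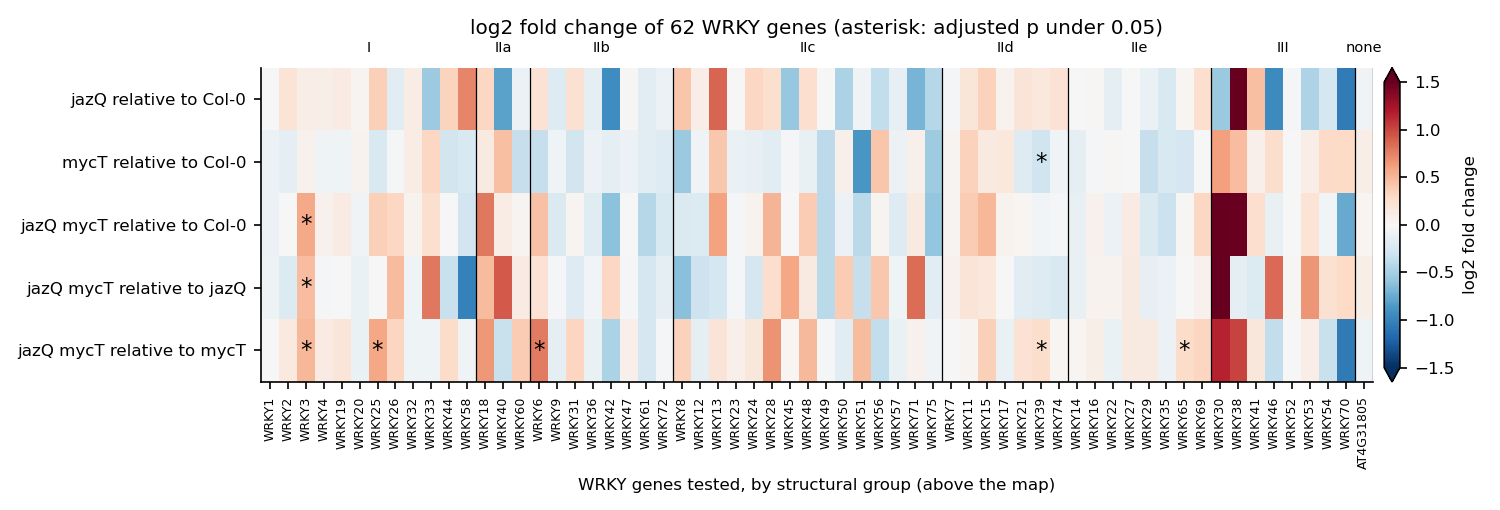
Colour shows the log2 fold change of the 62 WRKY genes tested (columns, by structural group) in 5 comparisons of genotypes (rows), with an asterisk where the adjusted p was under 0.05. The 8 asterisks fall on 5 genes, WRKY3, WRKY6, WRKY25, WRKY39 and WRKY65, and the colour scale ends at 1.5 in both directions.

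The members as a whole had medians near 0. Their median log2 fold change was −0.055 in *mycT* relative to Col-0 and 0.024 in *jazQ mycT* relative to Col-0, where the medians of all genes were −0.0026 and −0.0039. In *jazQ* relative to Col-0 31 members had a positive and 31 a negative value. A change of less than 0.5 on the log2 scale was seen in 51 members in *jazQ* (82.3%), against 92.6% of all genes, and in 53 members in *jazQ mycT* relative to Col-0 (85.5%), against 90.9%. The structural groups did not all lie alike. In group III, with 8 members tested, the median was 0.28 in *mycT* relative to Col-0 with all 8 values positive and none past the test, and −0.36 in *jazQ* with 2 of 8 positive. In group IIb, also with 8 tested, all 8 values were negative in *mycT*, from −0.34 to −0.06, and none passed. The values of the 2 groups in *mycT* thus did not overlap, and the difference between groups was not tested. Those of group III ran from 0.002 to 0.61. The other groups had values of both signs, but group IIe had 1 positive value of 8, at 0.017. Positive values numbered 4 of 12 in group I, 2 of 3 in IIa, 4 of 15 in IIc and 4 of 7 in IId. Among all 62 members 38 were negative and 24 positive in *mycT*. WRKY30, WRKY53, WRKY46 and WRKY70 of group III were among the members with the largest spread between libraries of one genotype. In *mycT* all of them were highest in replicate 3, so the 8 values of group III do not count as separate observations.

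WRKY3, which acts with its close relative WRKY4 in resistance to necrotrophs, was the member called in most comparisons. It was at 24.3, 31.1 and 31.4 TPM in *jazQ mycT*. In *jazQ* it was at 21.3, 23.3 and 22.5 TPM, in *mycT* at 20.9, 22.4 and 17.9 TPM, and in Col-0 at 21.4, 21.3 and 19.8 TPM. Every *jazQ mycT* library was above every library of the other 3 genotypes. The log2 fold change was 0.56 relative to Col-0 (SE 0.075, adjusted p = 0.000734), 0.47 relative to *jazQ* (0.00437) and 0.50 relative to *mycT* (0.00180), all by edgeR. The calls relative to Col-0 and to *mycT* held without each library in turn and under every other alternative run. Relative to *jazQ* the call was lost by limma on log2(TPM + 1), with an adjusted p of 0.142.

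WRKY3 was not alone in its surroundings. Its gene lies at chr2:1014350-1017222 (build TAIR10.1), and in the first 1250000 bases of chromosome 2 nearly every gene was higher in *jazQ mycT*. This stretch was noticed after the values had been seen. Of 208 genes tested there, 197 had a positive log2 fold change relative to Col-0, with a median of 0.54 (1.46-fold) and quartiles of 0.41 and 0.64. In that comparison 139 of the 208 passed the test as higher and 0 as lower, against 2.81% and 2.68% of all genes. The medians of the same genes were 0.52 relative to *jazQ* and 0.56 relative to *mycT*, with 132 and 145 called higher. For *jazQ* against Col-0 the median was 0.0012 and for *mycT* against Col-0 it was −0.025.

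The value of WRKY3 thus lay within the quartiles of its neighbours, and the next tested gene on each side, AT2G03330 and AT2G03350, had log2 fold changes of 0.42 and 0.60 relative to Col-0. Of 412 windows of 250000 bases with at least 15 genes tested in the genome, 6 had a median over 0.4 in *jazQ mycT* relative to Col-0. They were the first 5 windows of chromosome 2, at 0.51 to 0.61, and the window from 3250001 to 3500000 of the same chromosome, with 20 genes, which also differed in *jazQ* (−0.31) and in *mycT* (0.34). The other windows had medians from −0.15 to 0.21. From base 1500001 to 2750000 of chromosome 2 the median of 95 genes was −0.021. WRKY1, at chr2:1717833-1720526, lies in that next stretch, and had a log2 fold change of −0.09 relative to Col-0 (adjusted p = 0.437 by edgeR). No other member lies in the raised stretch. The number of copies of this DNA was not measured, and whether the call of WRKY3 is separate from that of its surroundings was not tested.

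**Figure D3:**
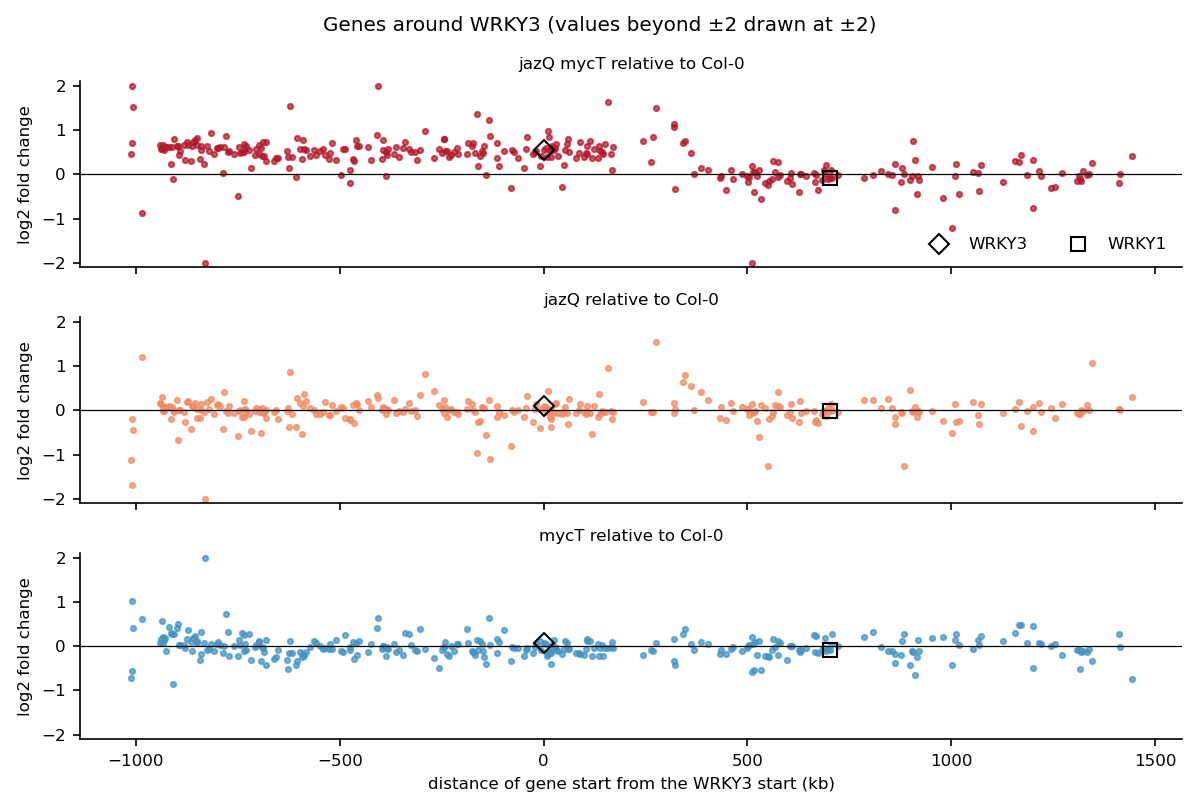
Each point is a tested gene, placed by the distance of its start from the WRKY3 start in kb, with its log2 fold change against Col-0 in *jazQ mycT* (top), *jazQ* (middle) and *mycT* (bottom). In *jazQ mycT* the genes around WRKY3 (diamond) lie near 0.54, while WRKY1 (square) and the genes around it lie near 0, and in *jazQ* and *mycT* both stretches lie near 0.

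The other 4 members called had no such surroundings: the other genes in their windows had medians of −0.09 to 0.15 in *jazQ mycT* relative to *mycT*. All 4 were higher in *jazQ mycT* than in *mycT*. WRKY6, a regulator of senescence that represses the phosphate exporter gene PHO1, was at 43.2, 47.4 and 42.6 TPM in *jazQ mycT* and at 19.8, 27.3 and 31.7 TPM in *mycT*. It was at 42.3, 41.1 and 39.5 TPM in *jazQ*, against 29.9, 35.3 and 40.2 TPM in Col-0. The *jazQ mycT* libraries stood above those of all other genotypes, and *jazQ* and Col-0 overlapped. The log2 fold change of *jazQ mycT* relative to *mycT* was 0.78 (SE 0.14, adjusted p = 0.00608 by edgeR). Relative to Col-0 it was 0.44 (adjusted p = 0.0936 from the same test). That difference passed by DESeq2 (0.0310), without Col-0 replicate 3 and without *mycT* replicate 1, and in no other of the 20 alternative fits.

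WRKY25, which acts in heat tolerance with WRKY26 and WRKY33, was at 29.4, 35.5 and 32.9 TPM in *jazQ mycT* and at 17.7, 22.6 and 25.9 TPM in *mycT*. In *jazQ* it was at 36.2, 32.4 and 36.3 TPM, against 25.6, 26.7 and 29.7 TPM in Col-0. Both genotypes with the JAZ insertions were above the matching genotype without them, with no overlap. The log2 fold change was 0.58 in *jazQ mycT* relative to *mycT* (SE 0.11, adjusted p = 0.00753) and 0.35 in *jazQ* relative to Col-0 (0.11, adjusted p = 0.111, both by edgeR), of which the second did not pass. Between *jazQ mycT* and *jazQ* the value was −0.00 with a SE of 0.11. In *jazQ mycT* relative to Col-0 WRKY25 did not pass in the main fit. There it passed as higher by DESeq2 (adjusted p = 0.0417) and by edgeR in a fit of both genotypes alone (0.0430). It also passed without Col-0 replicate 3, *mycT* replicate 1 or *mycT* replicate 3, and in no other of the 20 alternative fits.

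WRKY39 was at 56.4, 64.3 and 68.1 TPM in *jazQ mycT*, 73.0, 77.1 and 81.1 TPM in *jazQ*, 48.2, 55.2 and 54.6 TPM in *mycT* and 68.2, 73.0 and 66.4 TPM in Col-0. Its *mycT* libraries were the lowest of the 12, and it was the one member called in *mycT*. It fell by 0.30 on the log2 scale there (SE 0.050, adjusted p = 0.0140) and was higher by 0.26 in *jazQ mycT* relative to *mycT* (0.050, adjusted p = 0.00797, both by edgeR). Of the 20 alternative fits, the fall was lost in 6 and the second difference in 3, with both limma fits among each. The fall in *mycT* did not pass without *mycT* replicate 1 (adjusted p = 0.0732), without Col-0 replicate 2 (0.0816), in a fit of both genotypes alone (0.101) or by limma on log2(TPM + 1) (0.0659). Over all genes these fits had 82, 71, 61 and 133 calls in *mycT* relative to Col-0, against 377 in the main fit. The replicate numbers of Col-0 and *mycT* were read as paired from correlations that cannot establish it, and the main fit did not use them. With the replicate block in the fit 1 member was still called in *mycT* relative to Col-0. That block was shared by all 4 genotypes, so it was not a paired test of Col-0 and *mycT* alone.

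WRKY65, of group IIe, was at 33.0, 33.2 and 38.5 TPM in *jazQ mycT* and at 28.2, 31.0 and 27.5 TPM in *mycT*. In *jazQ* it was at 37.7, 37.0 and 38.5 TPM, against 37.3, 39.1 and 34.5 TPM in Col-0. The *mycT* libraries were again the lowest. It was higher by 0.28 on the log2 scale in *jazQ mycT* relative to *mycT* (SE 0.067, adjusted p = 0.0262 by edgeR). That call was lost in 8 of the 20 alternative fits, among them both limma fits. It was among these also lost by edgeR without either replicate 1 or replicate 3 of *mycT* or of *jazQ mycT* (adjusted p up to 0.107). Over all genes these leave-one-out fits had 778 to 1479 calls in this comparison, against 1635 in the main fit.

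The 2 libraries high in rRNA belong to the pair of genotypes in which these genes were called. When both were left out, an alternative chosen after seeing the data, the log2 fold changes in *jazQ mycT* relative to *mycT* were 0.58 for WRKY6 (adjusted p = 0.0506), 0.47 for WRKY25 (0.0535), 0.24 for WRKY39 (0.0909) and 0.26 for WRKY65 (0.157), by edgeR. None of the 4 then passed, while WRKY3 did and WRKY70 did as lower. That fit held 2 libraries of each of these genotypes, and over all genes it had 637 calls in this comparison, against 1635 in the main fit.

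**Figure D4:**
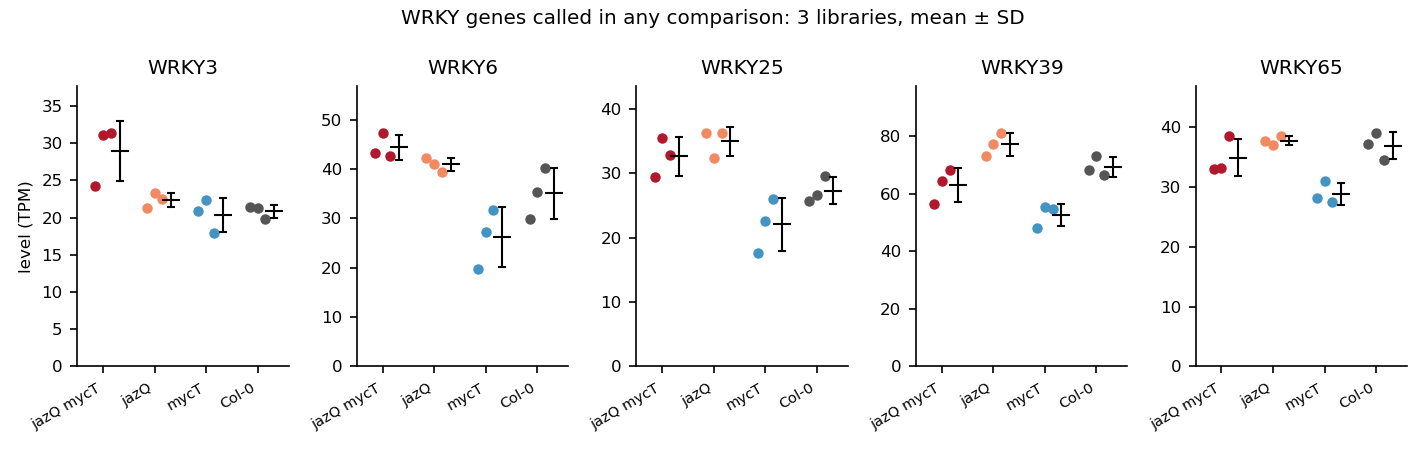
Level in TPM of the 5 members called in any comparison, with 1 point per library for *jazQ mycT*, *jazQ*, *mycT* and Col-0, and the mean and SD of 3 libraries beside each set. WRKY3 is raised in *jazQ mycT* alone, whereas WRKY39 and WRKY65 are lowest in the *mycT* libraries.

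Several members tied to salicylic acid and basal defence had differences that did not pass. WRKY70, which promotes salicylic acid responses over jasmonate responses, was at 30.5, 23.8 and 16.1 TPM in *jazQ mycT* and at 32.4, 51.0 and 68.7 TPM in *mycT*. In *jazQ* it was at 28.4, 24.3 and 9.32 TPM, against 38.4, 37.9 and 52.8 TPM in Col-0. No library of a genotype with the JAZ insertions reached any library of a genotype without them. The log2 fold change was −1.06 in *jazQ mycT* relative to *mycT* (SE 0.37, adjusted p = 0.0991) and −1.05 in *jazQ* relative to Col-0 (0.38, adjusted p = 0.175, both by edgeR). The difference from *mycT* passed without *jazQ* replicate 3 (adjusted p = 0.0445, edgeR), a library outside this comparison. It also passed without both libraries high in rRNA (0.0456, edgeR), and in no other of the 20 alternative fits.

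WRKY38, a repressor of basal defence, was at 1.51, 1.03 and 0.94 TPM in *jazQ mycT* and at 1.48, 1.42 and 1.31 TPM in *jazQ*. It was at 0.42, 0.87 and 0.43 TPM in *mycT* and at 0.25, 0.5 and 0.67 TPM in Col-0, so the sets with and without the JAZ insertions did not overlap. It had the largest log2 fold change of any member in *jazQ*, 1.62 relative to Col-0 (SE 0.41, adjusted p = 0.0575), and 1.48 in *jazQ mycT* relative to Col-0 (0.41, adjusted p = 0.0565), by edgeR. It had 149 counts over all libraries, and without Col-0 replicate 3 both values passed, at adjusted p of 0.0418 and 0.0377. The value in *jazQ* also passed by edgeR without *jazQ mycT* replicate 1 (0.0496) and without both libraries high in rRNA (0.0482). In the other alternative fits that tested WRKY38 neither value passed. Limma did not test it, since its mean of 0.90 TPM was under the 1 TPM required there.

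WRKY51, which with WRKY50 mediates the repression of jasmonate responses by salicylic acid, was at 2.38, 3.48 and 2.82 TPM in *mycT* and at 5.97, 5.0 and 5.9 TPM in Col-0. The sets did not overlap, and the log2 fold change was −0.88 (SE 0.20, adjusted p = 0.0523 by edgeR). It passed by limma on log2(TPM + 1) (adjusted p = 0.0343) and on log2(TPM + 0.1), and by edgeR without *jazQ* replicate 2. No other of the 20 alternative fits called it. By limma on log2(TPM + 1) the median of all genes in *mycT* was −0.084, and 15% of the calls were higher. In the test of counts these values were −0.0026 and 53.1%. In *jazQ mycT* WRKY51 was at 3.78, 4.53 and 3.70 TPM, between the *mycT* and Col-0 libraries, and in *jazQ* at 6.51, 4.30 and 5.51 TPM. WRKY50 was at 1.58 to 3.68 TPM in *jazQ mycT* and 1.65 to 4.24 TPM in Col-0.

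WRKY28, an activator of salicylic acid synthesis, was at 11.7, 13.7 and 12.6 TPM in *jazQ mycT* and at 7.07, 6.59 and 10.7 TPM in *mycT*. The sets did not overlap, and the log2 fold change was 0.68 (SE 0.19, adjusted p = 0.0523 by edgeR). That difference passed by DESeq2 (0.0179), with no filter and with the replicate block. It also passed without replicate 1 or replicate 3 of Col-0 or replicate 3 of *mycT*, and in no other of the 20 alternative fits. WRKY54, which overlaps in role with WRKY70, had −0.33 in the same comparison, with overlapping libraries. WRKY18, WRKY40 and WRKY60 form group IIa and together dampen basal defence. WRKY18 had 0.79 in *jazQ mycT* relative to Col-0 (adjusted p = 0.250), WRKY40 had −0.80 in *jazQ* relative to Col-0 (0.641) and WRKY60 had −0.35 in *mycT* relative to Col-0 (0.317), all by edgeR and none past it. In *jazQ mycT* relative to *mycT*, WRKY18 passed as higher without *mycT* replicate 3 (1.21, adjusted p = 0.0403 by edgeR). There WRKY60 passed as higher in a fit of both genotypes alone (0.39, adjusted p = 0.0268 by edgeR). Neither passed in the main fit or in any other alternative.

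Among members linked to phosphate, WRKY75, which supports phosphate uptake and limits root hairs, was at 8.22, 8.16 and 7.78 TPM in *jazQ mycT* and at 16.6, 10.8 and 11.2 TPM in Col-0. In *mycT* it was at 6.85, 8.65 and 10.1 TPM, also below every Col-0 library. Neither difference passed: the log2 fold changes were −0.59 (adjusted p = 0.0874) and −0.54 (0.158) by edgeR. WRKY42, a regulator of PHO1 and PHT1;1, was at 1.21, 1.34 and 1.24 TPM in *jazQ* and at 2.47, 3.41 and 1.5 TPM in Col-0, with a log2 fold change of −0.94 (adjusted p = 0.149, edgeR). WRKY45, an activator of PHT1;1, had −0.57 in *jazQ* relative to Col-0 and 0.58 in *jazQ mycT* relative to *jazQ*, with overlapping libraries in both.

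Of the developmental members, WRKY44 (TTG2), needed for trichomes and seed coat mucilage, was at 5.35, 7.40 and 5.20 TPM in *jazQ* and at 4.31, 4.38 and 5.34 TPM in Col-0 (log2 fold change 0.33, adjusted p = 0.350 by edgeR). WRKY13 and WRKY12, which act on flowering time and stem wall thickening, had 0.88 and 0.10 in *jazQ* relative to Col-0, at mean levels under 2 TPM. WRKY71, which promotes branching and flowering, had −0.70 in the same comparison. WRKY8, known from salt and virus responses, had −0.56 in *mycT* relative to Col-0 and −0.63 in *jazQ mycT* relative to *jazQ*. WRKY49 had −0.40 in *jazQ mycT* relative to *jazQ*, and WRKY56 had 0.42 in *mycT* relative to Col-0 and −0.37 in *jazQ mycT* relative to *mycT*. None of these passed the test, and in the comparisons named the libraries overlapped in each case.

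Among members whose mean reached 1 TPM in any genotype, the largest values of the interaction were 1.71 for WRKY30, 0.76 for WRKY71 and 0.61 for WRKY45, and the lowest were −0.68 for WRKY13, −0.61 for WRKY38 and −0.28 for WRKY41, and none of these passed. WRKY46 had −0.95 in *jazQ* relative to Col-0 and 0.85 in *jazQ mycT* relative to *jazQ*, WRKY41 had 0.45 in *jazQ* relative to Col-0 and WRKY40 had 0.92 in *jazQ mycT* relative to *jazQ*, and none of these passed either.

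Some of the other members with known roles had small log2 fold changes in every mutant. WRKY2, which acts in pollen and embryo patterning, WRKY23, which acts in auxin-dependent development, WRKY52 (RRS1), a resistance protein for bacterial wilt, and WRKY57, which acts in drought tolerance, had log2 fold changes between −0.19 and 0.21 in the 3 mutants, each relative to Col-0. In TPM, WRKY57 in *mycT* (18.6 to 20.3) and *jazQ mycT* (15.8 to 20.2) was below every Col-0 library (20.5 to 23.9). So was WRKY2 in *mycT* (6.49 to 7.08 against 7.62 to 8.83). WRKY23 was too in *jazQ mycT* (2.68 to 3.15 against 3.16 to 3.46), and the libraries overlapped in the other cases. WRKY22 and WRKY29, which act downstream of flagellin perception, had −0.08 and −0.22 in *jazQ mycT* relative to Col-0. WRKY29 had −0.35 in *mycT* (adjusted p = 0.0778, edgeR), where its libraries (8.13 to 9.39 TPM) were all below those of Col-0 (10.9 to 12.4 TPM). WRKY26 had 0.48 in *jazQ mycT* against *jazQ* (adjusted p = 0.132 by edgeR). A p that misses the threshold does not show that these levels were equal.

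Counted by libraries that did not overlap, 11 of the 62 members tested were separated in *jazQ* relative to Col-0 (7 higher and 4 lower), against 19.7% of all genes. In *mycT* relative to Col-0 16 were lower (25.8%) and 0 higher, against 18.8% and 4.09% of all genes. In *jazQ mycT* relative to *mycT* 12 were higher and 3 lower, against 7.54% and 11.8% of all genes. TPM values of *mycT* replicate 1 and *jazQ mycT* replicate 1 share their total with the rRNA counts given above.

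The largest differences in WRKY levels lay between libraries of one genotype. The SD of log2 CPM between libraries of one genotype had a median of 0.215 over the 62 members tested and of 0.129 over all genes tested, and 11 members were above the 95th percentile of all genes (0.486). The highest were WRKY30 (1.21), WRKY40 (1.03), WRKY53 (0.961), WRKY46 (0.856) and WRKY33 (0.773), followed by WRKY70, WRKY71, WRKY18, WRKY74, WRKY48 and WRKY56. The first 5 of these are known as early responders to touch, wounding or elicitors.

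WRKY40 was at 72.3, 20.2 and 14.1 TPM in *jazQ mycT*, 20.8, 29.1 and 14.1 TPM in *jazQ*, 15.7, 50.1 and 81.1 TPM in *mycT* and 19.9, 29.5 and 62.2 TPM in Col-0. WRKY33 was at 222, 105 and 83.3 TPM in *jazQ mycT*, 101, 103 and 59.8 TPM in *jazQ*, 63.2, 143 and 247 TPM in *mycT* and 75.6, 109 and 197 TPM in Col-0. The same 3 libraries were high for both, namely *jazQ mycT* replicate 1, *mycT* replicate 3 and Col-0 replicate 3.

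WRKY53, a regulator of leaf senescence, was at 39.1, 18.5 and 15.02 TPM in *jazQ mycT*, 18.9, 20.1 and 11.6 TPM in *jazQ*, 6.19, 23.3 and 44.1 TPM in *mycT* and 11.7, 19.3 and 39.3 TPM in Col-0. WRKY46, which acts in drought and stomatal responses, was at 18.2, 8.81 and 4.99 TPM in *jazQ mycT*, 7.08, 7.83 and 4.88 TPM in *jazQ*, 5.06, 14.6 and 25.5 TPM in *mycT* and 10.03, 8.52 and 19.7 TPM in Col-0. WRKY30 was at 8.45, 4.01 and 2.07 TPM in *jazQ mycT*, 1.21, 1.11 and 0.88 TPM in *jazQ*, 0.52, 1.56 and 5.49 TPM in *mycT* and 0.44, 0.78 and 3.6 TPM in Col-0. Again these 3 libraries were the highest of their genotypes, and *jazQ* held no library at their level. WRKY30 had the largest log2 fold changes of any member, 2.33 in *jazQ mycT* relative to *jazQ* and 1.77 relative to Col-0, with adjusted p of 0.220 and 0.245 by edgeR.

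The list of markers of touch or stress at harvest held 5 genes, since ERF109 is another name of RRTF1. ERF6, an early ethylene and stress response factor, was at 142, 51.9 and 40.4 TPM in *jazQ mycT*, 37.1, 42.0 and 23.3 TPM in *jazQ*, 39.9, 94.7 and 137 TPM in *mycT* and 36.1, 49.7 and 121 TPM in Col-0. The same 3 libraries were the highest. The sum of the 5 markers ran from 90.7 to 256 TPM over the *jazQ mycT* libraries, from 79.8 to 138 TPM over *jazQ*, from 76.1 to 267 TPM over *mycT* and from 103 to 237 TPM over Col-0, with 0 of 5 called in any comparison. RRTF1 was at or under 1.45 TPM in every library. CML38 was highest in *jazQ* replicate 2, at 52.7 TPM. The part of harvest or stress in the levels of these WRKY genes was not tested.

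**Figure D5:**
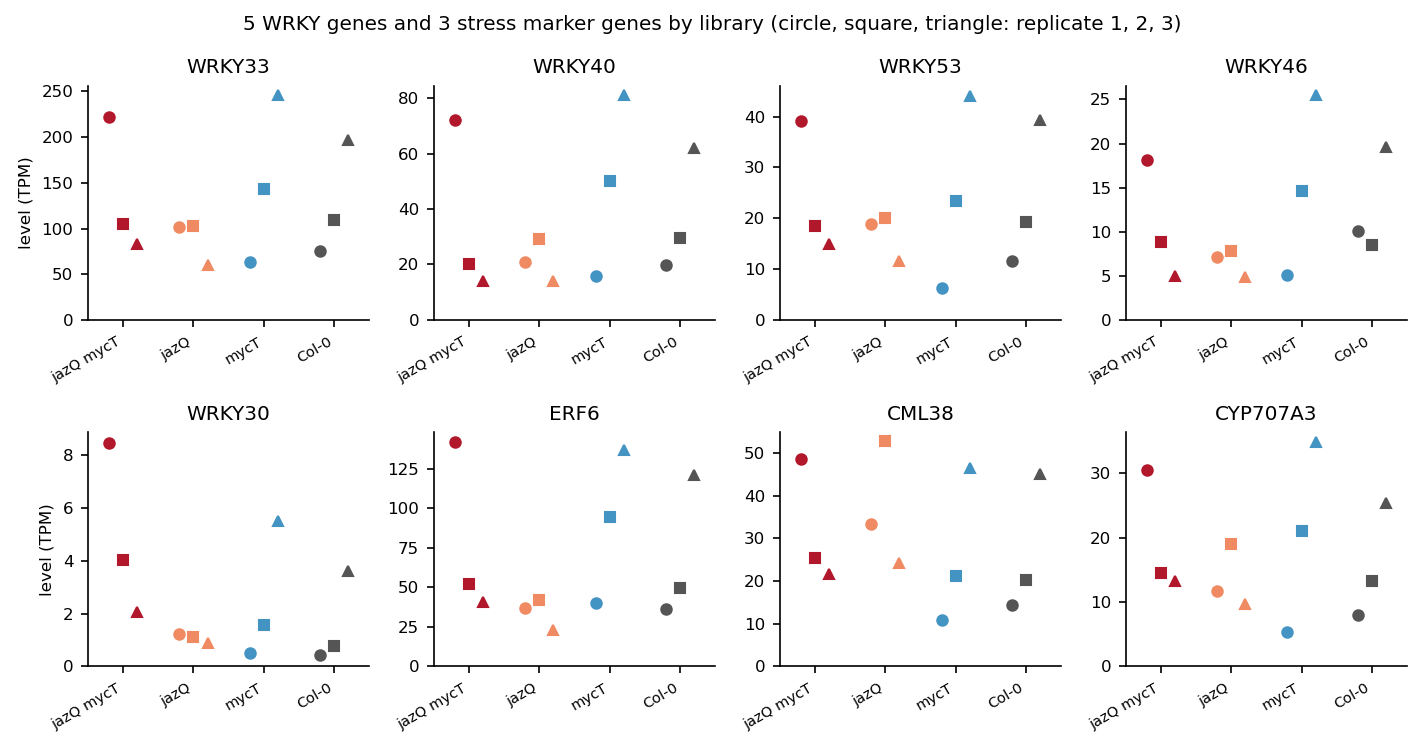
Level in TPM of WRKY33, WRKY40, WRKY53, WRKY46 and WRKY30 and of the stress markers ERF6, CML38 and CYP707A3 in each library of *jazQ mycT*, *jazQ*, *mycT* and Col-0 (circle, square and triangle for replicates 1, 2 and 3). For all 5 WRKY genes *jazQ mycT* replicate 1, *mycT* replicate 3 and Col-0 replicate 3 are the highest of their genotypes.

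Genes that work with WRKY proteins were read from lists drawn up for the purpose. Of 6 VQ proteins tested, which bind WRKY partners, SIB2 fell in *jazQ* by 0.60 on the log2 scale (adjusted p = 0.0320) and was higher by 0.82 in *jazQ mycT* than in *jazQ* (0.00417), and no other VQ gene passed (edgeR). Of 10 kinases of the MAP kinase cascades upstream of WRKY33 and its relatives, MKK9 alone passed, lower by 0.96 in *jazQ mycT* relative to *mycT* (0.0294, all by edgeR). Of all genes, 1.11% were called lower in *jazQ* relative to Col-0 and 1.33% higher in *jazQ mycT* relative to *jazQ*. In *jazQ mycT* relative to *mycT* 3.77% were called lower. The medians of these 2 lists in *jazQ* relative to Col-0 were −0.42 and −0.091, beside −0.0069 over all genes.

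Of 6 camalexin genes tied to WRKY33, GGP1, which acts in the glutathione step of camalexin and glucosinolate synthesis, fell by 0.93 in *mycT* relative to Col-0 (adjusted p = 2.98e-05) and was higher by 0.92 in *jazQ mycT* relative to *mycT* (1.70e-05), by edgeR. The 5 others passed in no comparison. In *mycT* relative to Col-0 0.847% of all genes were lower, and in *jazQ mycT* relative to *mycT* 4.05% were higher. The interaction was called as higher in 1 of the 6 camalexin genes, against 0.469% of all genes. Of 11 salicylic acid genes tied to WRKY70, WRKY54, WRKY28 and WRKY46, the marker PR5 was higher in *jazQ mycT* by 0.75 relative to Col-0 (adjusted p = 0.0106, edgeR) and no other passed there, against 2.81% of all genes called higher. Relative to *jazQ*, 1 of the 11 was called higher in *jazQ mycT*, against 1.33% of all genes. Of 5 senescence genes tied to WRKY53 and WRKY6, ANAC092 (ORE1) fell by 1.05 in *jazQ* and by 1.15 in *jazQ mycT*, each against Col-0, and no other passed. Of all genes, 1.11% were called lower in the first of these comparisons and 2.68% in the second. Of 10 trichome and seed coat genes tied to WRKY44, 0 passed in any comparison, with a median of 0.34 in *jazQ* relative to Col-0.

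The list of phosphate genes tied to WRKY6, WRKY42, WRKY45 and WRKY75 had the most calls. In *jazQ mycT* relative to Col-0, 4 of 6 were lower and 0 higher, with a median of −0.77, beside −0.0039 over all genes, of which 2.68% were lower. They were SPX1 (−1.25), a sensor of phosphate status, the noncoding RNA IPS1 (−1.09) and the phosphate transporters PHT1;4 (−0.56) and PHT1;1 (−0.37). Relative to *mycT*, 3 of 6 were lower, against 3.77% of all genes, and relative to *jazQ* 1 was, against 0.876%, while none of the 6 passed in *jazQ* or in *mycT* against Col-0. The root marker CASP5 fell by 0.76 in *jazQ mycT* relative to Col-0 as well, 1 of 17 root markers, whose sum ran from 130 to 149 TPM in *jazQ mycT* and from 154 to 170 TPM in Col-0. In *jazQ mycT* relative to *mycT* CASP1 was lower by 0.38, again 1 of the 17, with sums from 130 to 149 TPM in *jazQ mycT* and from 146.5 to 168 TPM in *mycT*. PHO1, which is also in the phosphate list, is the largest term of these root sums. It was at 42.8 to 43.3 TPM in *jazQ mycT*, 45.8 to 53.9 TPM in *mycT* and 50.6 to 54.7 TPM in Col-0. None of the 17 root markers was at 0 in every library. The share of root tissue in these differences was not tested. Of 15 shoot markers tested, FT and ATML1 fell in *jazQ mycT* against Col-0, where 2.68% of all genes were called lower. The sum of 17 shoot markers ran from 18524 to 24929 TPM in *jazQ mycT* and from 18907 to 21555 TPM in Col-0. CLV3 was at 0 in all Col-0 libraries. Relative to *mycT*, whose sums ran from 22311 to 26348 TPM, 4 of the 15 were lower in *jazQ mycT* (FT, AS1, LTP1 and ATML1) and 0 higher. The list median was −0.25, and 3.77% of all genes were lower in this comparison, which holds 5 of the 8 WRKY calls. In *mycT* relative to Col-0, RBCS1A and CA1 were higher, by 0.44 each, 2 of the 15 against 0.957% of all genes. The paper reports raised photosynthesis transcripts in *mycT*, and reduced FT in *jazQ* and *jazQ mycT*. The part of shoot tissue was not tested either.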

How the data were processed

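mRNA from 12 libraries, 3 for each of 4 genotypes, was read as deposited. Single-end reads were filtered and mapped by the authors to TAIR10 gene models, and genes were quantified with RSEM v1.2.11, whose expected counts were deposited as whole numbers without normalization. TPM values come from the same RSEM run, and the deposited values are scaled by the authors to gene length and library total. The aligner and library strand are not given in the sources used here, so reads of overlapping genes may be shared.

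Expected counts were tested with edgeR v4.0.16 (glmQLFit and glmQLFTest, TMM factors, filterByExpr, 1 term per genotype over all 12 libraries) in R v4.3.3. Genes with an adjusted p under 0.05 were called. Alternatives were RLE factors, DESeq2 v1.42.0, no filter, only the genotypes compared, the replicate number as a block, limma v3.58.1 on log2(TPM + 1) and log2(TPM + 0.1) (genes averaging 1 TPM or more), and each library left out. Fits were checked on simulated data. Same-numbered Col-0 and mycT libraries deviated together from their group means (correlations of 0.251, 0.134 and 0.307 over genes). This was read as pairing, although no source says what the numbers mark. No other pair of genotypes had 3 correlations over 0.1. Differently numbered libraries were not correlated, so these values cannot show that the numbers pair libraries.

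Sequences were read from the RefSeq TAIR10.1 genome and its annotation, in which all 76 members were found by locus, and structural groups were assigned from common knowledge of the family. Members and lists were chosen with earlier results of these data known. Members named are those called in any comparison, the 10 highest, the 3 largest rises and falls per comparison among those with at least 1 TPM in a genotype, and those with known roles. A few others are named for their sequence, position, spread or lack of counts. VQ1, VQ4, VQ10, VQ12, VQ22, SEN1, SIRK, PHT1, PHR1 and SMB were not matched to a single gene. Comparisons of genotypes drew on 62 tested members, and intervals for counts of 0 cover counting error only.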

Additional observations from a re-analysis of the deposited data

How the results depend on the processing

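Leaving out 1 library at a time gave 0 to 1 WRKY genes called in jazQ relative to Col-0, 0 to 2 in mycT relative to Col-0, 1 to 5 in jazQ mycT relative to Col-0, 1 in jazQ mycT relative to jazQ, 4 to 6 in jazQ mycT relative to mycT and 0 for the interaction. The most calls in jazQ mycT relative to Col-0 came without Col-0 replicate 3, and the 0 in mycT without Col-0 replicate 2 or mycT replicate 1. A fit of only the genotypes compared called 0 in mycT and 2 in jazQ mycT relative to Col-0, and DESeq2 called 3 in the second of these. Limma on log2(TPM + 1) and on log2(TPM + 0.1) called 0 in jazQ mycT relative to jazQ and 3 in jazQ mycT relative to mycT, and its 1 call in mycT was WRKY51 in place of WRKY39. On the TPM scale the median of all genes fell by 0.101 in jazQ mycT relative to Col-0 and by 0.106 relative to jazQ with the pseudocount of 0.1, and 25.9% of the calls relative to Col-0 were higher, against 51.2% in the test of counts. Without both libraries high in rRNA there were 2 calls in jazQ mycT relative to mycT, 1 in jazQ and 0 in mycT. With the replicate block there were 0, 1, 1, 1, 6 and 0 calls in the same order of comparisons as above, and the sixth in jazQ mycT relative to mycT was WRKY28. The cause of these shifts was not tested. Of the 8 calls, the direction was the same in all 20 alternative fits, and WRKY3 relative to Col-0 and to mycT passed in each. No alternative called a member in the opposite direction. In jazQ mycT relative to Col-0 the standard error of the log2 fold change was 0.81 for WRKY30 and 0.075 for WRKY3, so a difference of the size seen for WRKY3 was not detectable for WRKY30 at this spread.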
